A study of Mus musculus with 6 samples.

Results

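Trbv1 is the mouse T cell receptor β (TCR-β) variable gene whose protein is called Vβ2, and its clones are described here in CD4+ T cells of kidney and spleen. They were taken as all clones of the 6 libraries whose best-scoring V gene was Trbv1 (TRBV1 in the clone tables), which gave 36573 of 352074 clones. None of the 36573 had a second V gene in its hit list, although 1197 of all clones did. Trbv1 was chosen because the largest clone of the kidney of mouse 3 uses it, so the size of that clone, and with it the share of UMIs that Trbv1 holds in that kidney, is given as a description without a test. The RefSeq annotation of GRCm38.p6 places Trbv1, with Tcrb-V2 as an older symbol, on chromosome 6 from base 40891296 to 40891885.

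The libraries came from 3 C57BL/6 wildtype mice, female and 10 to 14 weeks old by the methods of the study. In every mouse the right ureter was obstructed reversibly (RUUO) between day 0 and day 6, and the left ureter was ligated (unilateral ureteral obstruction, UUO) on day 17. The left kidney and the spleen were taken on day 22, and the 6 libraries hold 1 kidney and 1 spleen sample of each mouse. All 3 mice carry both injuries, so the comparison is of organs within injured mice, and libraries of mice without the injuries were not analysed here. CD4+ T cells were enriched in 2 magnetic steps from kidney and in 1 from spleen and were then sorted, so organ and enrichment cannot be told apart. The files hold TCR-β sequences only, and the CD4+ label was therefore not checked against marker genes.

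A TCR-β chain is assembled in each developing T cell by joining a variable (V), a diversity (D) and a joining (J) segment. Bases are trimmed from the segment ends, short palindromic (P) bases can be copied from an untrimmed end, and further bases are added without a template. The resulting junction encodes the CDR3, the loop that lies over the presented peptide, while the V segment itself encodes the loops that mostly touch the MHC molecule. Trbv1 lies at the far upstream end of the V array, and its product can be stained by antibodies against Vβ2.

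In the 5′ RACE method, each mRNA molecule receives a random tag, the unique molecular identifier (UMI), so that PCR copies are counted once. A clonotype was defined by its CDR3 bases, V gene and J gene, and it was called coding if the CDR3 had neither a stop codon nor a frameshift. Values below are over coding clonotypes unless the text says otherwise. The kidney libraries held 693 to 1248 UMIs in 473 to 760 clonotypes, and the spleen libraries 97735 to 224811 UMIs in 78078 to 140429 clonotypes. Each Trbv1 UMI was read 470 to 803 times in the kidney libraries but 7.92 to 20.7 times in the spleen libraries. UMIs count mRNA molecules and not cells, so more cells of a clone and more TCR-β mRNA per cell cannot be told apart. Intervals are exact 95% Clopper-Pearson intervals and cover counting error only.

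The V-encoded start of the CDR3 is shown here because the start residues, lengths and trimming below are counted from it. Each sequence is the most common V part among untrimmed clonotypes of the 6 libraries, with Trbv13-2 and Trbv5, the V genes closest to Trbv1 in number of clonotypes, for comparison. Capitals mark codons for cysteine.
Trbv1: TGCaccTGCagtgcaga
Trbv13-2: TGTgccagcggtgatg
Trbv5: TGTgccagcagccaaga
The 17 bases of Trbv1 were carried by 84.2% of its 4152 untrimmed clonotypes without P bases. They encode Cys, Thr, Cys, Ser and Ala, followed by the opening bases of a codon for Asp or Glu. The other 23 V genes had 13 to 17 bases in this place, with a median of 17. The leading cysteine is the conserved residue that starts every CDR3, whereas the inner cysteine belongs to the Trbv1 segment. Of the other V genes, Trbv22 alone had a second cysteine codon in its most common V part, at another position.

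Trbv1 was among the most used V genes in both organs. It held 89, 143 and 124 UMIs in 64, 80 and 60 clonotypes in the kidneys of mice 1, 2 and 3. In the spleens it held 21745, 27967 and 11313 UMIs in 12366, 14219 and 8415 clonotypes. Its rank by UMIs among the V genes was 2, 1 and 1 for kidney and 1, 1 and 2 for spleen, and its rank by clonotypes 2, 2 and 1 for kidney and 1, 2 and 2 for spleen.

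The share of UMIs with Trbv1 was 11.5% (9.35 to 13.98%), 11.5% (9.74 to 13.4%) and 17.9% (15.1 to 20.95%) in the kidneys of mice 1, 2 and 3. In the spleens of the same mice it was 13.6%, 12.4% and 11.6%. The kidney of mouse 3 thus lay above all other libraries, while the kidneys of mice 1 and 2 lay below every spleen. With the largest Trbv1 clonotype of each library left out, the kidneys had 11.2%, 10.5% and 13.8% and the spleens 13.5%, 12.4% and 11.6%. The kidney of mouse 3 was then close to the spleen of mouse 1, 13.8% against 13.5%, given without an interval or a test.

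**Figure D1:**
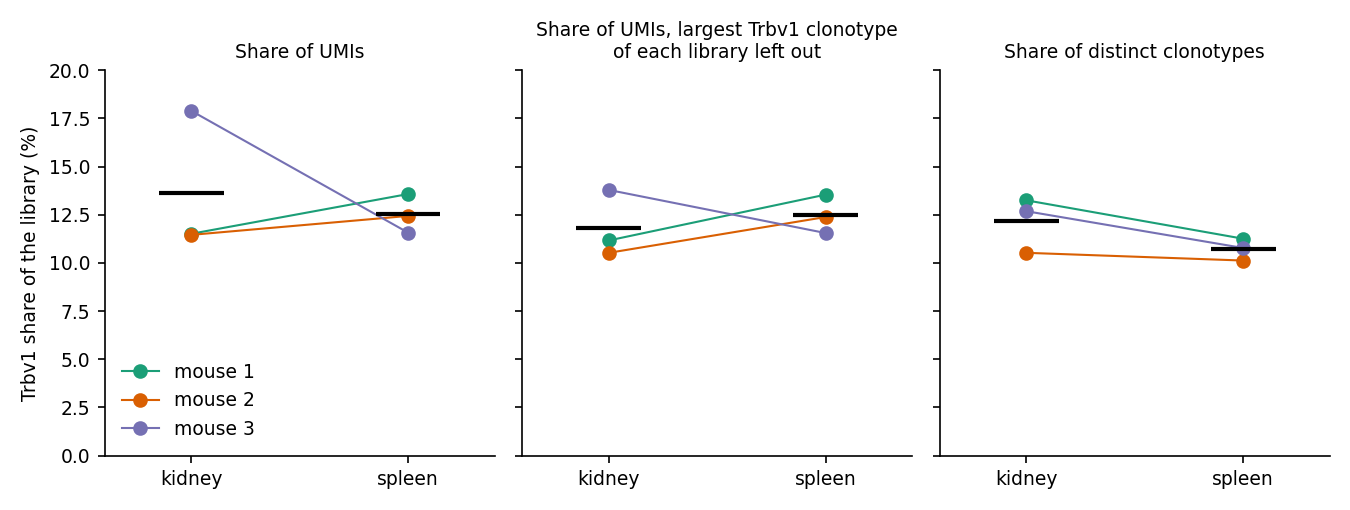
Share of Trbv1 in each library in percent, by UMIs, by UMIs without the largest Trbv1 clonotype of each library, and by distinct clonotypes. Points are libraries, lines join the kidney and spleen of a mouse and black bars are means of 3 libraries. By UMIs the kidney of mouse 3 stands at 17.9% and falls to 13.8% without its largest clonotype, and by clonotypes each kidney lies above the spleen of its mouse.

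In mice 1 and 2, which did not enter the choice of the gene, the difference in UMIs between kidney and spleen was smaller than could be called. The log2 fold change of kidney against spleen was -0.18 (SE 0.18, edgeR quasi-likelihood test, adjusted p = 0.633). Of the 24 V genes tested, 1 was called in this comparison, which is 4.17%, and that gene was Trbv15. Over all 6 libraries the value was 0.095, given without a test, and without the largest clonotype of the kidney of mouse 3 it was -0.045.

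By distinct clonotypes, in which a large clone counts once, Trbv1 made up 13.3%, 10.5% and 12.7% of the kidneys and 11.3%, 10.1% and 10.8% of the spleens. The kidney was the higher organ in each mouse, but the groups overlapped, since the kidney of mouse 2 lay below the spleens of mice 1 and 3. The mean was 12.2% ± 1.44 (SD, n = 3) in kidney and 10.7% ± 0.569 (SD, n = 3) in spleen. The log2 fold change was 0.16 (SE 0.088) and did not pass the test (edgeR quasi-likelihood test, adjusted p = 0.454). None of the 24 V genes passed, a background of 0%, with 3 genes at an unadjusted p under 0.05. Trbv1 ranked 9 of the 24 V genes by log2 fold change in this fit, of which 10 were higher and 14 lower in kidney. The kidneys held 473 to 760 clonotypes and the spleens 78078 to 140429, and spleen Trbv1 clonotypes had the most UMIs each of 20 V genes. The part of this depth in the higher kidney share was not tested.

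The V genes whose clonotype share moved most like that of Trbv1 across the 6 libraries were Trbv12-2, Trbv15 and Trbv20. Their likeness to Trbv1, as Pearson's r of log2 clonotype shares over 6 libraries and among 19 V genes compared, was 0.88, 0.76 and 0.62. With UMI shares the same values were 0.76, -0.44 and 0.54, so the likeness of Trbv15 did not carry over to UMIs. These 6 points include 3 of each organ, and shares of the same library sum to a fixed total. Trbv12-2 made up 0.658 to 1.69% of the kidney clonotypes, so its kidney shares rest on few clonotypes.

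The clonotypes that carried the most Trbv1 UMIs in the kidneys are shown with their CDR3 bases, since they decide the UMI shares above. K3a to K3c are the 3 largest of the kidney of mouse 3 and K2a to K2c those of the kidney of mouse 2. Capitals mark the bases between the V and J parts, which include any D bases.
K3a (kidney 3): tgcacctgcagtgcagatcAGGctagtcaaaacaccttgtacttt
K3b (kidney 3): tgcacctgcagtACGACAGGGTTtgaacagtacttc
K3c (kidney 3): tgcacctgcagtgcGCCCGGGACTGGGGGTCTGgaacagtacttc
K2a (kidney 2): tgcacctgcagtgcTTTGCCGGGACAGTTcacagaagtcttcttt
K2b (kidney 2): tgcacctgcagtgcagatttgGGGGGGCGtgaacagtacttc
K2c (kidney 2): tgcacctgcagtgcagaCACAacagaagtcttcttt
In the kidney of mouse 1, 8 Trbv1 clonotypes tied at 3 UMIs and none was larger, so none is shown.

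K3a was the largest clonotype of the kidney of mouse 3, with 33 UMIs, and the value that chose the gene. It made up 4.76% (3.30 to 6.62%) of the UMIs of that kidney and 26.6% of its Trbv1 UMIs. In the spleen of the same mouse it had 4 UMIs, 0.00409% (0.00112 to 0.0105%) of that library, and ranked 427. It had 0 UMIs in the 4 libraries of the other mice. Its junction joined an untrimmed Trbv1 end with 2 P bases to an untrimmed Trbj2-4 end with 2 P bases, with 3 bases between them and no D segment called. No Trbv1 clonotype of that kidney differed from it by a single base. With this clonotype, Trbj2-4 held 31.5% of the Trbv1 UMIs of the kidney of mouse 3 but 8.33% of its Trbv1 clonotypes.

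The next Trbv1 clonotypes of that kidney were K3b with 7 UMIs and K3c with 5, both with Trbj2-7. They had 8 and 1 UMIs in the spleen of mouse 3. In the kidney of mouse 2, K2a had 13 UMIs, or 1.04% (0.556 to 1.77%) of the library, and K2b and K2c had 8 each. In the spleen of mouse 2 these had 17, 28 and 87 UMIs. All 6 named kidney clonotypes were thus also found in the spleen of their own mouse, and none of them was seen as the same bases in a library of another mouse. Clonotypes with at least 2 UMIs numbered 17, 24 and 18 of the Trbv1 clonotypes of the 3 kidneys, and those with at least 10 numbered 0, 1 and 1.

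In the spleens no Trbv1 clonotype made up more than 0.0649% of its library. The largest of each spleen are shown because most of them were found again in the kidney of the same mouse, with S1a and S1b from spleen 1, S2a and S2c from spleen 2, S3a from spleen 3, and capitals as above.
S1a (spleen 1): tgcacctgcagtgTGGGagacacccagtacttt
S1b (spleen 1): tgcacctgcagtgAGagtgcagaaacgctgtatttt
S2a (spleen 2): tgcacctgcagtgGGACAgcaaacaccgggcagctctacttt
S2c (spleen 2): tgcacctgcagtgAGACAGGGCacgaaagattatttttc
S3a (spleen 3): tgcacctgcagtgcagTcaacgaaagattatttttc
They had 57 and 47 UMIs in the spleen of mouse 1, 146 and 57 in that of mouse 2, and 25 in that of mouse 3. In the kidney of the same mouse they had 1 and 1, then 1 and 3, and then 3 UMIs. Among the remaining members of the top 3 were a clonotype with Trbj2-3 and 42 UMIs in spleen 1, K2c with 87 UMIs in spleen 2, and a clonotype with Trbj1-3 and 14 UMIs in spleen 3. Their own kidneys held 0, 8 and 2 UMIs of them.

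Of the 9 largest Trbv1 clonotypes of the spleens, 8 were present in the kidney of the same mouse, against 1 hit in 18 looks into the kidneys of the other mice. Of the 20 largest of each spleen, 7, 11 and 8 were present in the kidneys of mice 1, 2 and 3, in all 26 of 60, against 1 hit in 120 looks into other kidneys. Of the 100 largest, 49 of 300 were present in the own kidney and 4 hits were made in 600 looks into other kidneys. The hit among the largest was S1b, which had 1 UMI in each of the kidneys of mice 1 and 2, 47 UMIs in spleen 1 and 9 in spleen 2. It was the only Trbv1 clonotype found in more than 1 kidney. Large spleen clonotypes of other V genes were not counted in this way, so whether these counts are particular to Trbv1 was not tested.

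**Figure D2:**
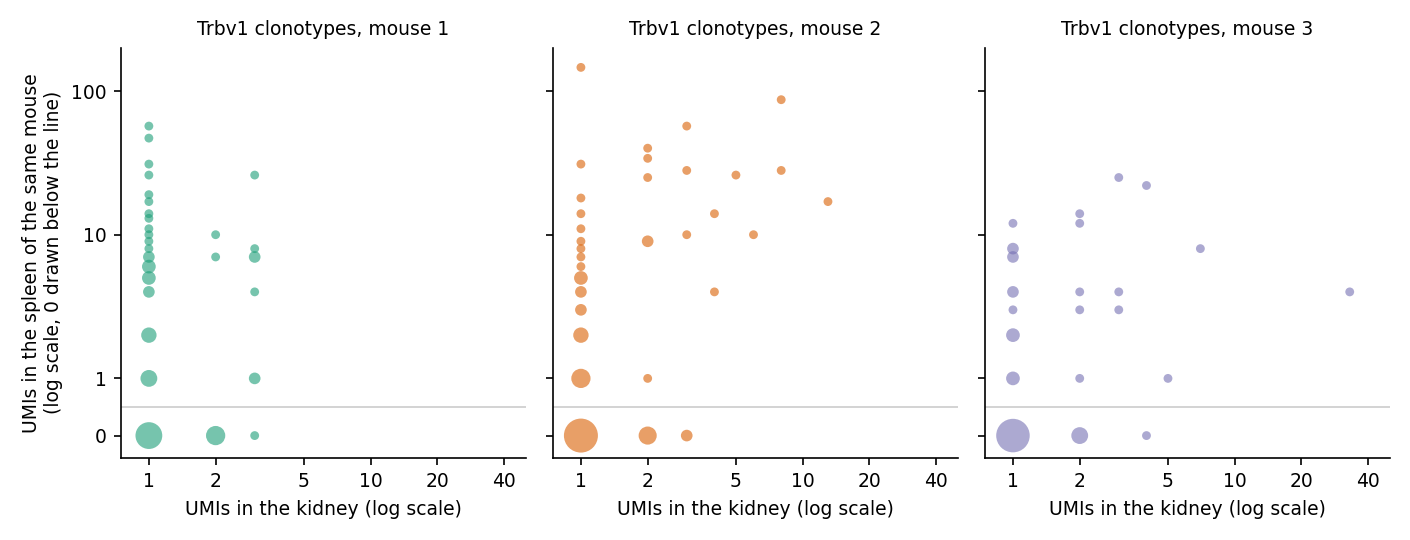
UMIs of each Trbv1 kidney clonotype in the kidney (x axis, log scale) and in the spleen of the same mouse (y axis, log scale, with clonotypes not found in the spleen drawn below the line at 0), for mice 1, 2 and 3. Larger points stand for more clonotypes at the same values. The clonotype with 33 kidney UMIs in mouse 3 had 4 spleen UMIs, and the clonotype with 146 spleen UMIs in mouse 2 had 1 kidney UMI.

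In all, 40 of 64, 43 of 80 and 26 of 60 kidney clonotypes with Trbv1 recurred in the matching spleen, that of the same mouse. These shares were 62.5% (49.5 to 74.3%), 53.8% (42.2 to 65.0%) and 43.3% (30.6 to 56.8%). For clonotypes of the other V genes the shares were 46.1%, 50.4% and 43.3%. Trbv1 was higher in mice 1 and 2 and level in mouse 3, with a mean difference of 6.58 percentage points ± 8.70 (SD, n = 3 mice) that did not pass the exact sign-flip permutation test (two-sided, p = 0.5). With 3 mice or 3 libraries compared within themselves, this test cannot give a p below 0.25. The difference turned to -1.14 when only clonotypes with at least 2 UMIs were kept. In spleens of other mice, 3.13 to 13.8% of the Trbv1 kidney clonotypes and 3.24 to 8.11% of the others were found.

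Recovery in the spleen is given by size in the kidney. Of the Trbv1 clonotypes with at least 3 kidney UMIs, 7 of 8, 10 of 12 and 7 of 8 were in the spleens of mice 1, 2 and 3. Of those with at least 2, 9 of 17, 16 of 24 and 12 of 18 were, and of those with 1 kidney UMI, 31 of 47, 27 of 56 and 14 of 42. With the boundary at 2 UMIs the larger clonotypes of mouse 1 were thus recovered in a smaller share than those with 1 UMI, 52.9% against 66.0%, and in mice 2 and 3 in a larger one. These are counts of few clonotypes, and the 95% intervals of the classes overlapped in each mouse.

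Trbv1 clonotypes carried more UMIs each than clonotypes of the other V genes in all 3 spleens. The mean was 1.76, 1.97 and 1.34 UMIs per Trbv1 clonotype in the spleens of mice 1, 2 and 3, against 1.42, 1.56 and 1.24 for the others. The log2 ratio was 0.25 ± 0.12 (SD, n = 3), positive in 3 of 3 spleens (exact sign-flip permutation test, two-sided, p = 0.25; adjusted p = 0.25 over 6 tests of this kind). With reads in place of UMIs the log2 ratio was 0.15, and among clonotypes with at least 2 UMIs it was 0.086. Among the 20 V genes with at least 500 clonotypes in every spleen, Trbv1 had the highest value in each spleen, and Trbv13-3 followed with a mean of 1.54. Trbv13-2, with a similar number of clonotypes, had 1.42, 1.55 and 1.24.

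Clonotypes with 1 UMI made up 57.9%, 50.5% and 75.8% of Trbv1 against 74.1%, 66.6% and 82.7% of the others, and this share was the lowest of the 20 V genes in each spleen. Trbv1 clonotypes had the higher mean with each of the 12 Trbj genes in each spleen, 36 of 36 comparisons. The mean was 1.69 ± 0.329 (SD, n = 3) for untrimmed and 1.69 ± 0.312 (SD, n = 3) for trimmed Trbv1 clonotypes. Non-coding Trbv1 clones had 1.11 ± 0.0809 UMIs (SD, n = 3) and non-coding clones of other V genes 1.09 ± 0.0400 (SD, n = 3). Both lie close to 1 UMI, the least a clone can have, so they leave little room for a difference. Reads per UMI moved the other way, with 11.8, 7.92 and 20.7 for Trbv1 and 13.2, 8.62 and 21.2 for the others, and the part of sequencing or priming in the UMI excess was not tested. In the kidneys the ratio was not uniform, with 1.39, 1.79 and 2.07 UMIs per Trbv1 clonotype against 1.63, 1.63 and 1.38 for the others. Non-coding kidney clones had 2.50 ± 1.38 UMIs with Trbv1, from few clones, and 1.11 ± 0.0359 with other V genes (SD, n = 3).

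**Figure D3:**
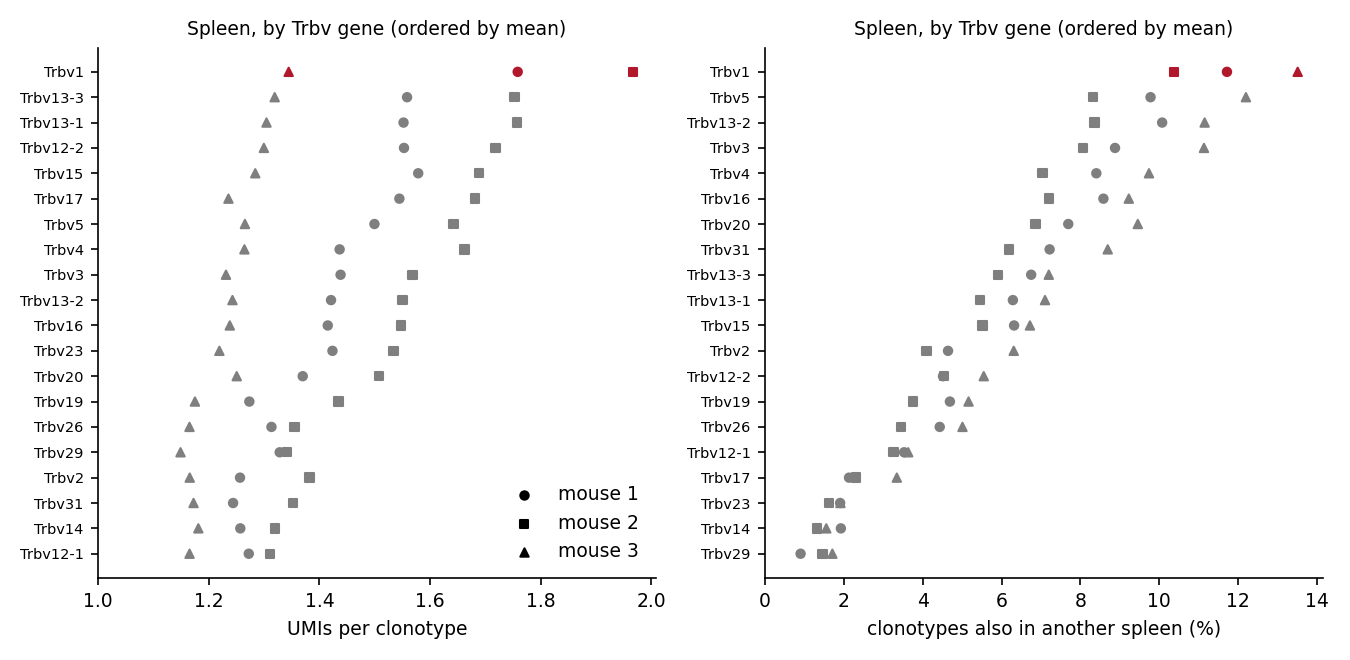
UMIs per clonotype (left) and percent of clonotypes also found in another spleen (right) for the 20 V genes with at least 500 clonotypes in every spleen, ordered by their mean. Symbols are the spleens of mice 1, 2 and 3, and Trbv1 is drawn in red. Trbv1 has the highest value in each spleen on both axes.

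Trbv1 clonotypes were also found in more than 1 mouse more often than those of other V genes. Of the Trbv1 clonotypes of the spleens of mice 1, 2 and 3, 11.7%, 10.4% and 13.5% were found with the same CDR3 bases and J gene in another spleen. The share exceeded that of the other V genes by 4.61 percentage points ± 0.479 (SD, n = 3), in 3 of 3 spleens (exact sign-flip permutation test, two-sided, p = 0.25). A clonotype shared by 2 spleens counts in each of them. The 3 values are therefore not independent, here and for the shared clonotypes in the next paragraph. Among clonotypes with at least 2 UMIs the difference was 3.02 percentage points. Trbv1 had the highest share of the 20 V genes in each spleen. Trbv5 followed with a mean of 10.1% and Trbv13-2 with 9.86%, and the median of the other 19 was 6.18%. Trbv1, Trbv5 and Trbv13-2 were also the V genes with the most clonotypes, on average 11667, 10221 and 12540 per spleen. The part of clonotype number in the sharing was not tested. In all, 1871 of 32811 distinct Trbv1 clonotypes were in at least 2 spleens and 318 were in all 3.

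The Trbv1 clonotypes found in several spleens had short junctions with few added bases. They had 0.687 ± 0.0338 inserted bases (SD, n = 3), against 2.49 ± 0.0462 (SD, n = 3) for those found in 1 spleen, counted where a D segment was called. Their mean CDR3 length was 13.5 against 14.2 amino acids, and 43.8% against 27.2% had no D segment called. They also carried 2.24 ± 0.611 against 1.62 ± 0.289 UMIs each (SD, n = 3), and the part of UMI number in the sharing was not tested. Different bases encoded the same Trbv1 CDR3 and J gene most often among the 20 V genes, with 1.16 clonotypes per amino acid sequence on average against a median of 1.07.

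Among the Trbv1 clonotypes found in all 3 spleens, 3 had the most UMIs, and S2a, shown above, led with 6, 146 and 5 UMIs in spleens 1, 2 and 3. The remaining pair had no bases at all between the V and J parts and are shown as Pa and Pb for that reason.
Pa: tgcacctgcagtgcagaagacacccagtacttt
Pb: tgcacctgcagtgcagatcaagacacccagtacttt
Both use Trbj2-5 and an untrimmed Trbv1 end, and the second has 2 P bases. Pa had 15, 24 and 8 UMIs in the spleens of mice 1, 2 and 3, and Pb had 16, 13 and 7. Neither was found in a kidney.

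Trbv1 was joined to J genes in other proportions than the rest of the repertoire. In the spleens, 10 of 12 Trbj genes passed the test of Trbv1 against all other clonotypes, which is 83.3%, with 6 higher and 4 lower. The same test of each of the other 19 V genes with enough clonotypes called 145 of 228 pairs, which is 63.6%, with 4 to 11 calls per V gene and a median of 7. The mean absolute log2 difference was 0.24 for Trbv1, and 9 of the 19 V genes exceeded it. Unequal J pairing was thus common among V genes here and not particular to Trbv1.

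The Trbj1 cluster held 37.6% ± 1.71 of Trbv1 and 34.0% ± 1.24 of other clonotypes (SD, n = 3). By size the largest differences were those of Trbj1-5, Trbj1-6 and Trbj1-2, and both clusters held differences of either sign. Trbj1-5 made up 3.58 to 4.35% of Trbv1 clonotypes against 2.64 to 2.86% of the others, a log2 difference of 0.58 (SE 0.057, adjusted p = 1.29e-09). Trbj1-6 made up 4.14 to 4.51% against 2.91 to 3.25%, a log2 difference of 0.47 (SE 0.052, adjusted p = 1.12e-08). Trbj1-1 made up 11.6 to 12.5% against 9.72 to 10.2%, a log2 difference of 0.28 (SE 0.027, adjusted p = 8.97e-10). None of these 3 ranges overlapped between the classes, and neither did those of Trbj1-2, Trbj2-2, Trbj2-3, Trbj2-4, Trbj2-5 and Trbj2-7. Only the ranges of Trbj1-3, Trbj1-4 and Trbj2-1 overlapped, so separate ranges were common among the 12 Trbj genes. Trbj1-2 went the other way within the same cluster, with 3.95 to 4.15% against 5.12 to 5.73%, a log2 difference of -0.45 (SE 0.042, adjusted p = 8.97e-10). Among the 20 V genes, Trbv1 ranked 2 for Trbj1-5, 3 for Trbj1-6 and Trbj1-1, and 16 for Trbj1-2 by this difference.

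In the Trbj2 cluster, Trbj2-3 was lower with Trbv1, at 8.42% ± 0.126 against 10.4% ± 0.217 (SD, n = 3), a log2 difference of -0.31. Only 1 of the 20 V genes had a lower value for Trbj2-3. Trbj2-7, the J gene most used with Trbv1, was lower at 15.7% against 17.2%, and Trbj2-5 at 12.3% against 13.8%. Trbj2-4, the J gene of the large kidney clonotype, was slightly higher in the spleens at 10.2% against 9.20%. Trbj2-2 and Trbj1-4 were higher by 0.17 and 0.11 on the log2 scale. Trbj1-3 and Trbj2-1 did not pass, with adjusted p = 0.199 and adjusted p = 0.0627.

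**Figure D4:**
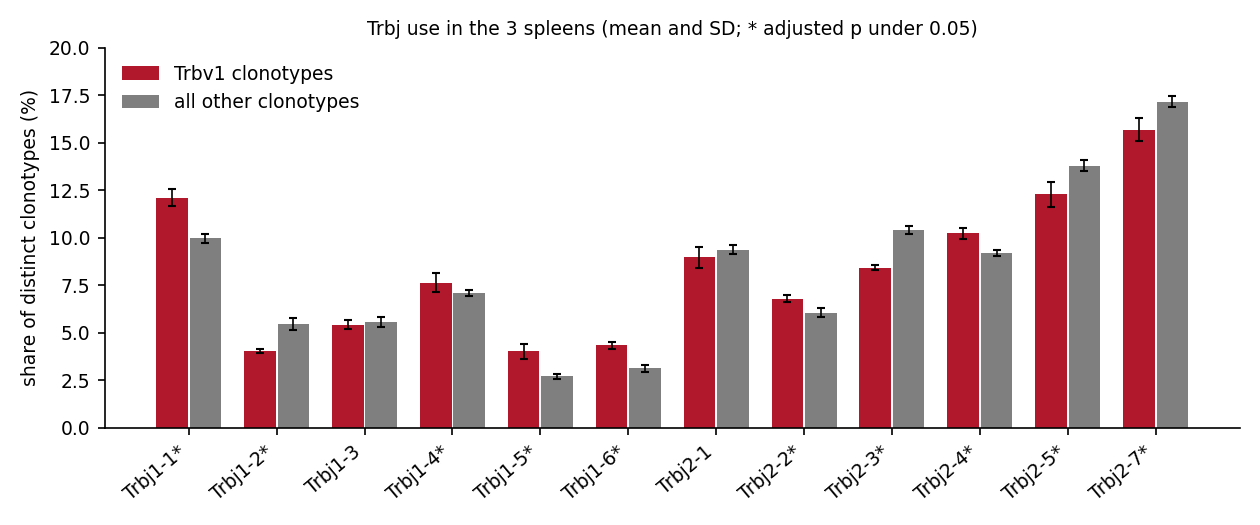
Share of each Trbj gene among distinct Trbv1 clonotypes (red) and among all other clonotypes (grey) of the spleens, in percent. Bars are means and error bars SDs of 3 spleens, and a star marks an adjusted p under 0.05. Trbj1-1, Trbj1-5 and Trbj1-6 are higher with Trbv1 and Trbj1-2, Trbj2-3, Trbj2-5 and Trbj2-7 lower.

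J pairing was not tested in the kidneys, so absence of this pattern there and low depth cannot be told apart. A single clonotype moves a share by 1.25 to 1.67 percentage points there, and the spleen direction was met in 16 of 30 pairs of a called J gene and a kidney. Trbj2-7 was lower with Trbv1 in all 3 kidneys, whereas Trbj1-5 was higher in 0 of 3 and Trbj2-3 was lower in 0 of 3, with a mean of 11.6% with Trbv1 against 9.65%.

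The CDR3 of Trbv1 clonotypes was longer than that of the others. In the spleens the mean was 14.1 amino acids in each mouse for Trbv1 and 13.8 for the others, a difference of 0.282 ± 0.00622 (SD, n = 3) in the same direction in 3 of 3 spleens (exact sign-flip permutation test, two-sided, p = 0.25). Lengths of 15 and 16 made up 25.9% and 10.0% of Trbv1 clonotypes against 20.99% and 7.28% of the others, while a length of 13 made up 18.1% against 22.9%. Trbv1 ranked 3 of the 20 V genes by length in each spleen, with Trbv5 the longest at 14.5.

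The added length came from the V part. Trbv1 contributed 15.1 ± 0.0238 bases to the CDR3 and the other V genes 13.9 ± 0.0117 (SD, n = 3). The J parts were alike in length, with 18.6 ± 0.0369 and 18.6 ± 0.0118 bases (SD, n = 3). Between V and J, Trbv1 junctions had fewer bases, 8.62 ± 0.0429 against 8.94 ± 0.0103 (SD, n = 3). Where a D segment was called, the inserted bases next to it numbered 2.32 against 2.54, a difference of -0.221 ± 0.0325 (SD, n = 3) in 3 of 3 spleens (exact sign-flip permutation test, p = 0.25). Among clonotypes with at least 2 UMIs this difference was -0.0955.

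Trimming of the V end had its own profile. On average 2.20 bases were missing from the Trbv1 end and 2.45 from the others, a difference of -0.246 ± 0.0128 (SD, n = 3) in 3 of 3 spleens (exact sign-flip permutation test, p = 0.25). The share left untrimmed was similar, 27.6% ± 0.386 (SD, n = 3), against 27.3%, 27.2% and 27.2% of the other clonotypes of mice 1, 2 and 3. Among trimmed ends, loss of exactly 3 bases, which leaves the end at tgc, was the most frequent for Trbv1, in 22.3% of Trbv1 and 12.4% of other clonotypes. Loss of 2 bases was rarer than in the others, 8.23% against 14.8%, and loss of 5 was 5.18% against 12.2%. The aligner called P bases in 15.8% ± 0.402 of Trbv1 clonotypes (SD, n = 3), against 11.98%, 11.9% and 11.8% of the others. In 91.8% ± 0.518 (SD, n = 3) of these clonotypes the P bases equalled the reverse complement of the Trbv1 end, and the rest, K2b above among them, held a mismatch.

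**Figure D5:**
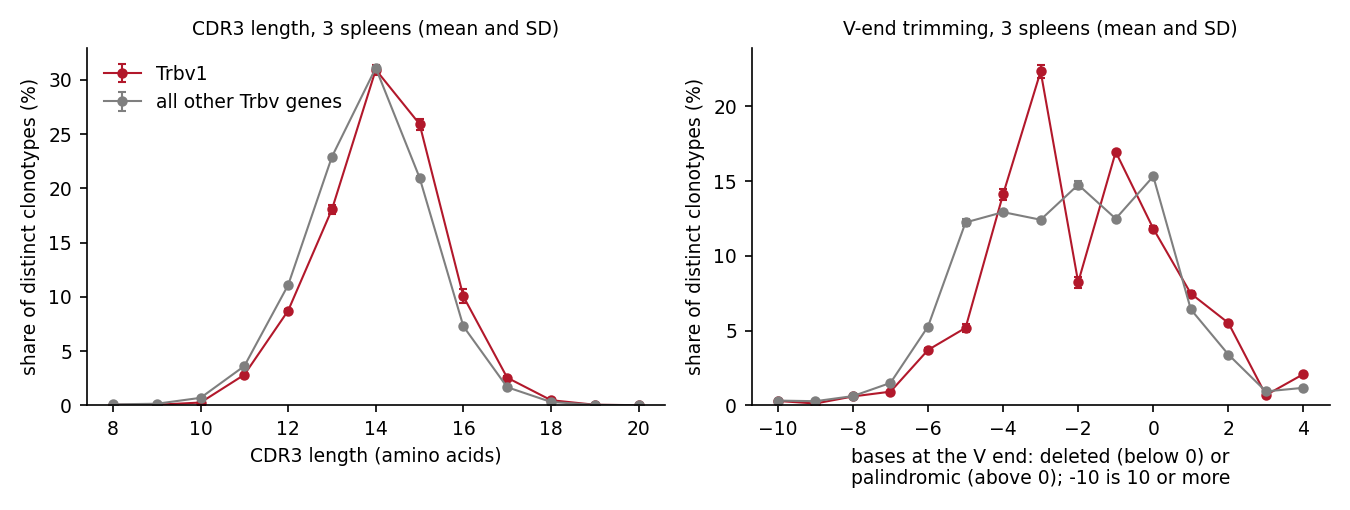
Left, CDR3 length in amino acids, and right, bases deleted from the V end (below 0, with -10 for 10 or more) or P bases (above 0), each as percent of distinct clonotypes in the spleens for Trbv1 (red) and all other V genes (grey). Points are means and error bars SDs of 3 spleens. Trbv1 has more clonotypes of 15 and 16 amino acids, and peaks at 3 deleted bases (22.3%) with a dip at 2 (8.23%).

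In the kidneys the Trbv1 clonotypes had mean CDR3 lengths of 13.67, 14.01 and 13.97 amino acids, below all 3 spleens. The difference of kidney minus spleen was -0.219 amino acids (exact permutation test, two-sided, p = 0.1, the smallest p that 3 against 3 libraries allow). That test leaves out the pairing of organs within mice, and paired by mouse the exact sign-flip permutation test gave p = 0.25. Weighted by UMIs the difference was -0.0762, and with K3a also left out it was -0.186. Both are given without a test, because the size of K3a chose the gene. Without mouse 1 the unweighted difference was -0.117. Other V genes had 13.8, 13.9 and 13.9 in the kidneys and 13.8 in each spleen.

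Nearly all Trbv1 CDR3 sequences began with the residues that the segment encodes. CTC opened 99.5% ± 0.0364 of the spleen clonotypes (SD, n = 3) and 204 of 204 in the kidneys, and 0% of clonotypes of other V genes. A cysteine inside the CDR3 was present in 99.6% of Trbv1 and 0.142% of other spleen clonotypes. CTCSA opened 73.4% ± 0.0842 in the spleens and 71.7% ± 8.04 in the kidneys (SD, n = 3). CTCSAD followed with 20.0% in spleen and 19.8% in kidney, CTCSAG with 16.05% and 17.1%, and CTCSG with 9.56% and 9.24%. For the last 4 of these starts the kidney values varied more between mice than the spleen values, and the organ means differed by less than 1 SD of the kidneys.

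The residue at position 6, where the germline codon is incomplete, depended on trimming. With an untrimmed V end it was Asp in 73.5% and Glu in 24.2% of spleen clonotypes, the residues that a codon starting with ga can encode. With at least 1 base deleted it was Gly in 31.7%, Arg in 15.3% and Asp in 3.47%. In the kidneys, Asp was at this position in 42 of 59 untrimmed and 2 of 145 trimmed clonotypes. The 33-UMI clonotype of mouse 3 is of the untrimmed kind.

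Coding clones were a larger part of Trbv1 than of the other V genes in the spleens. They made up 96.2%, 95.8% and 97.2% of all Trbv1 clones in the spleens of mice 1, 2 and 3, against 93.3%, 93.2% and 94.2% of the others. The difference was 2.84 percentage points ± 0.181 (SD, n = 3), in 3 of 3 spleens (exact sign-flip permutation test, two-sided, p = 0.25). Frameshifts made up 3.53% ± 0.692 of Trbv1 and 6.18% ± 0.571 of other clones, and stop codons 0.181% ± 0.0685 and 0.825% ± 0.0631 (SD, n = 3). Among clones with at least 2 UMIs the difference was 1.12 percentage points. By coding share Trbv1 ranked 4 of the 20 V genes, and Trbv13-2 was the highest with 97.0%.

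In the kidneys, 98.5% (91.7 to 99.96%), 94.1% (86.8 to 98.1%) and 89.6% (79.7 to 95.7%) of the Trbv1 clones were coding. The 1, 5 and 7 non-coding clones were all frameshifts. The largest of these, in the kidney of mouse 1, used Trbj2-3 and had 4 UMIs, more than any coding Trbv1 clonotype of that kidney, and 11 UMIs in the spleen of the same mouse. In the kidney of mouse 2, 1 frameshifted clone with Trbj2-1 had 3 UMIs in kidney and 36 in spleen.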

How the data were processed

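TCR-β mRNA of sorted CD4+ T cells was amplified by 5′ RACE with UMIs. The authors built clones with MiXCR, and the deposited tables give the UMI and read counts of each clone without normalization. They also give each clone as a fraction of the library, a deposited value used only as a check on the counts. The submitters' processing notes name GRCm38 and mm10.

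Trbv1 and the lists used here were chosen with earlier results of these data known. V gene usage (24 Trbv genes with at least 10 UMIs) and J pairing (12 Trbj genes, library as a block) were tested by edgeR's quasi-likelihood test with library totals and Benjamini-Hochberg adjustment. Means over clonotypes were compared over libraries by exact permutation tests. Named were the 3 clonotypes with the most Trbv1 UMIs in each library (no tied last place), any in more than 1 kidney, the 3 with the most UMIs in all spleens, each J gene called, the most used J gene, and the 3 V genes most like Trbv1. Other V genes beside a rank, and the counts over the 20 and 100 largest spleen clonotypes, were added after the values were seen. A clonotype among those the rule names is not reported here.

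Kidney and spleen with the same number in their sample titles were taken as from 1 mouse. Their deviations from the organ means over 20 V genes correlated at -0.423, 0.294 and 0.358 in mice 1, 2 and 3. Of the Trbv1 kidney clonotypes, 43.3 to 62.5% were in the spleen with the same number, against 3.13 to 13.8% in the other spleens. With a limit of 3 counts, a clonotype not seen in the smallest kidney may still hold up to 0.433% of it.

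Python 3.11.15 (numpy 2.4.6, pandas 2.3.3, scipy 1.17.1, matplotlib 3.10.9) and R 4.3.3 (edgeR 4.0.16, DESeq2 1.42.0) were used. Tested on 50 simulations each, the fits called a 2-fold change of Trbv1 among 24 V genes in 100% (both usage comparisons) and a 1.2-fold change among 12 J genes in 100%. The simulated counts held counting error only, with no variation between libraries and no large clones. For usage, changes as small as those observed were not simulated, so the power to call them is not known.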

Additional observations from a re-analysis of the deposited data

How the results depend on the processing

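Of 100 values recomputed under other settings, 94 kept their direction and their side of the threshold. Some of the 94 equal the main value. UMI usage without mouse 3 is the main fit itself, and dropping the limit of 10 UMIs per V gene left Trbv1 usage unchanged. Values with an exact permutation test could change in direction only, since that test cannot reach p under 0.05 here. A count of 9 or 11 called J genes in place of 10 was taken as kept. For UMI usage in mice 1 and 2 the log2 fold change was 0.095 with all 6 libraries, and the values of those libraries with each mouse left out ran from -0.18 to 0.25, positive without mouse 1 or without mouse 2. In mice 1 and 2 it was -0.52 with at least 2 UMIs per clonotype and -0.0049 with DESeq2. Clonotype usage turned to -0.090 and the difference in kidney clonotypes found in spleen to -1.14 percentage points with at least 2 UMIs per clonotype, and none of these passed a test. With CDR3 amino acid clonotypes, clonotype usage was 0.25 (adjusted p = 0.105). The count of V genes that differed in clonotype usage rose from 0 to 1, Trbv31, with TMM factors, and was 0 with DESeq2. With the mouse as a replicate block, which pairs kidney and spleen, Trbv1 usage was 0.16 by clonotypes (adjusted p = 0.454) and -0.18 by UMIs (adjusted p = 0.932), and the block changed no call. The number of J genes called was 10 without the replicate block and 9 to 10 with each mouse left out. The settings without the largest clone for UMI usage and for UMI-weighted length were chosen after seeing the data. The number of mice and the 60 to 80 Trbv1 clonotypes per kidney limit what could be called.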
